A study of Mus musculus with 20 samples.

Results

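The STAT genes Stat2, Stat3, Stat4, Stat5a, Stat5b and Stat6 were followed in CUT&RUN peak lists for p65 and SOCS1 from mouse bone-marrow-derived macrophages. These 6 are among 21887 protein-coding genes of the mm10 table used. A peak was assigned to a gene where its centre lay within 10 kb of the gene's span, which gave 201 of 258959 peaks. Peaks of the 12 lists that overlapped by at least 1 bp were joined to 1 site, which gave 69 STAT sites among 96700 regions. CUT&RUN releases and sequences the DNA beside an antibody's target, so a peak marks where tags pile up, not what the protein does there.

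The cells were KO or WT and were either untreated (control) or stimulated with LPS, the TLR4 ligand of bacterial outer membranes, at 100 ng/mL for 30 min or 8 h. Each antibody, genotype and time is 1 library, and the p65 and SOCS1 libraries of a genotype and time share 1 IgG library. GEO's description gives NOS1 as the gene knocked out and a strain written C65BL6 for WT, whereas the series title concerns SOCS1; which gene is disrupted cannot be told from the peaks, so these cells are called KO. In cells without SOCS1, peaks of the SOCS1 antibody would be background. With 1 library per group no difference between groups was tested and no SD can be given. All intervals are exact 95% intervals. Those of ratios cover counting error of tags only, and those of shares treat sites as independent.

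STAT proteins are latent transcription factors that wait in the cytoplasm until Janus kinases on cytokine receptors phosphorylate them, after which they pair and enter the nucleus. STAT2 works with IRF9 in the type I interferon response, STAT3 answers IL-6 and IL-10, STAT4 answers IL-12, the paralogs STAT5A and STAT5B answer GM-CSF and other growth cytokines, and STAT6 answers IL-4. SOCS1 is a feedback inhibitor of the Janus kinases, and p65 (RELA) is the NF-κB subunit that LPS sends to the nucleus within minutes.

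The libraries held 6929718 to 18433869 tags and the lists 9438 to 43124 peaks. Peak width was set by the caller for each library and ran from 222 bp (p65, KO, 30 min) to 493 bp (p65, KO, 8 h). The unit followed is the Normalized Tag Count, the tags in a peak scaled to a library of 10000000, so a wider peak takes in more tags. IgG sat at its minimum, 0.5 tags, beneath 91.4% of p65 and 88.0% of SOCS1 peaks of the KO controls, and beneath 14.7% to 43.0% of peaks elsewhere. The floor held for 4 of 4 p65 and 16 of 18 SOCS1 STAT peaks of KO control cells, and its part in the KO control values below was not tested. Of the 8 macrophage marker genes, 6 to 8 had a peak in a list, as did 0 to 5 of 5 neutrophil, 1 to 4 of 6 lymphocyte and 2 to 4 of 4 dendritic cell genes. Among all protein-coding genes the share was 32.4% to 65.4% by list. Both ends of the neutrophil range were p65 lists at 30 min, 5 in KO and 0 in WT cells. A peak is not expression, so these counts do not check the cell type.

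The 250 bases before the starts of Stat2 and Stat6 and the second start of Stat5a are shown for the pattern matches they hold near or under the peaks. Sequences are RefSeq's (GRCm38.p6, the same build as mm10), read in the direction of transcription. Capitals mark matches to a κB-like pattern (GGG, any 5 bases, CC) or to an ISRE-like pattern (TTTC, any 2 bases, TTTC) on either strand.
Stat2, chr10:128270248-128270497, plus strand: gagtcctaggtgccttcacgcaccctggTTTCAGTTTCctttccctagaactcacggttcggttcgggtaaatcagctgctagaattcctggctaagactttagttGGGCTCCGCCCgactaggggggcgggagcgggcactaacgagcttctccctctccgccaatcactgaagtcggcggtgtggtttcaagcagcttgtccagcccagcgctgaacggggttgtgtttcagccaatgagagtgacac
Stat6, chr10:127642736-127642985, plus strand: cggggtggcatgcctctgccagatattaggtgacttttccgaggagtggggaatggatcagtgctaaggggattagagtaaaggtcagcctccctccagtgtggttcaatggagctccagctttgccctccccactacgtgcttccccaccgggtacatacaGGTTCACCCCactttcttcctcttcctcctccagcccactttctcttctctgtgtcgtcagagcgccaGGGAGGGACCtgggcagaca
Stat5a, second start, chr11:100860234-100860483, plus strand: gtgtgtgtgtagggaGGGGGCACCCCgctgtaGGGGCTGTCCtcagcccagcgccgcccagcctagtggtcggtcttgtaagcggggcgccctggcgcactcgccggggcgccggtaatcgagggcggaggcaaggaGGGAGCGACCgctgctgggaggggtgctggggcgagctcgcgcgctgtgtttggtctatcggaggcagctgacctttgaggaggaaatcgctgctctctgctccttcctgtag

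In the Stat2 sequence the first capitals, TTTCAGTTTC, are the ISRE-like match, 222 to 213 bp before the start, and the second are 2 overlapping κB-like matches on opposite strands. The κB-like pattern was present in 6 of the 9 STAT start-site windows (Stat2, Stat3 and Stat6 have 1 start each, Stat4, Stat5a and Stat5b 2 each) but also in 45.8% of 32817 windows of the same length. The ISRE-like pattern was in 2 of 9, those of Stat2 and of the second start of Stat4, against 2.97% of all windows. The GAS pattern TTCNNNGAA, which STAT dimers read, was in none of the 9 and in 7.01% of all windows. The Stat3 window held none of the 3 patterns. Of the 4 κB-like matches before the second Stat5a start, GGGAGCGACC lay under the p65 peaks of both KO and WT cells at 30 min. The ISRE-like match of Stat2 lay under 1 peak, that of p65 in KO cells at 30 min. These matches are letters in a window and not evidence of binding.

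Nearly every list placed a peak at every STAT gene. All 6 genes had one in 10 of the 12 lists, and 5 of 6 in p65 KO control, which lacked Stat2, and in SOCS1 WT control, which lacked Stat5a. Among all protein-coding genes the share with a p65 peak was 35.8%, 65.4% and 55.5% in KO cells (control, 30 min, 8 h) and 32.7%, 61.9% and 55.9% in WT cells. The share with a SOCS1 peak was 55.3%, 51.0% and 44.6% in KO cells and 32.4%, 47.7% and 38.6% in WT cells. STAT genes are long, 18.03 kb (Stat6) to 120.1 kb (Stat4) against a median span of 17.17 kb. Among the 10644 genes at least as long as Stat6 the share with a peak was 39.3% to 76.3%, which is between the share of all genes and that of the 6 STAT genes.

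The number of p65 peaks at STAT genes was 4, 32 and 17 in KO cells (control, 30 min, 8 h) and 9, 27 and 24 in WT cells. SOCS1 peaks numbered 18, 18 and 14 in KO cells and 10, 15 and 13 in WT cells. The whole p65 lists followed the same order, with 10721, 43124 and 25811 peaks in KO cells and 9643, 36030 and 31007 in WT cells. The whole SOCS1 lists held 24270, 19931 and 15633 peaks in KO cells and 9438, 19631 and 13720 in WT cells. In KO cells at 30 min Stat5b and Stat4 carried the most p65 peaks, 10 each, while in WT cells Stat5b had 11, Stat6 7 and Stat4 4. At 8 h Stat4 had 2 p65 peaks in KO cells and 7 in WT cells. Stat2, with 2 p65 peaks in each WT list, changed least in number there. Per length, Stat6 was the densest, with 2.892 sites per 10 kb of window, and Stat4 the sparsest, with 1.214.

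**Figure D1:**
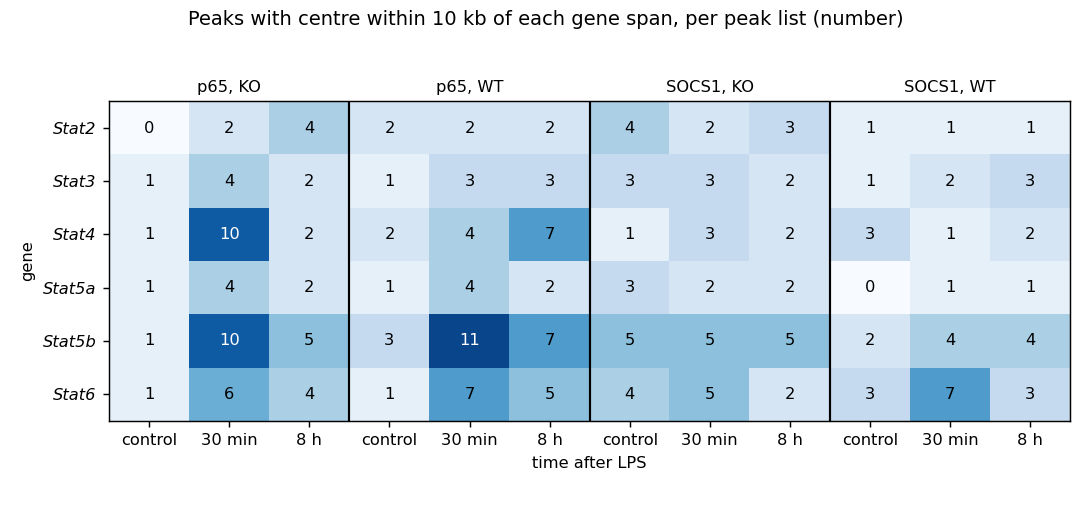
Number of peaks with centre within 10 kb of each STAT gene (rows) in each of the 12 lists (columns, by antibody, genotype and time after LPS); darker cells hold more peaks. The p65 columns at 30 min reach 10 (KO) and 11 (WT), and the only empty cells are Stat2 in p65 KO control and Stat5a in SOCS1 WT control.

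Of the 69 sites, 24 were called with p65 alone, 16 with SOCS1 alone and 29 (42.0%) with both, against 33.9% of all regions called with both. By genotype, 19 sites (27.5%) were called in KO cells alone, 17 (24.6%) in WT cells alone and 33 (47.8%) in both, against 35.8%, 22.0% and 42.2% of all regions. A single list held 32 sites (46.4%, against 51.9% of all regions), and 11 sites (15.9%, against 14.3%) were called in 6 or more lists. No site was in all 12. Inside a STAT span lay 50 sites, and 9 overlapped a window of 250 bases before to 50 after a start. Because the spans of Stat5a and Stat5b lie 346 bp apart, 5 sites belong to both, and 1 is shared by Stat3 and Stat5a.

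The 11 sites of 6 or more lists are described by gene; they include the strongest p65 and SOCS1 site of each STAT gene. All 11 were called with both antibodies and in both p65 lists at 30 min, while 7 had no p65 peak in either control list. The rule of 6 or more lists favours this pattern, since each antibody has 6 lists and the p65 lists at 30 min are the longest. The same counts over all regions of 6 or more lists were not computed. Only 3 of the 11 lay inside a STAT span, and 6 lay within 10 kb of another protein-coding gene as well, so their tags cannot be given to the STAT gene alone.

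**Figure D2:**
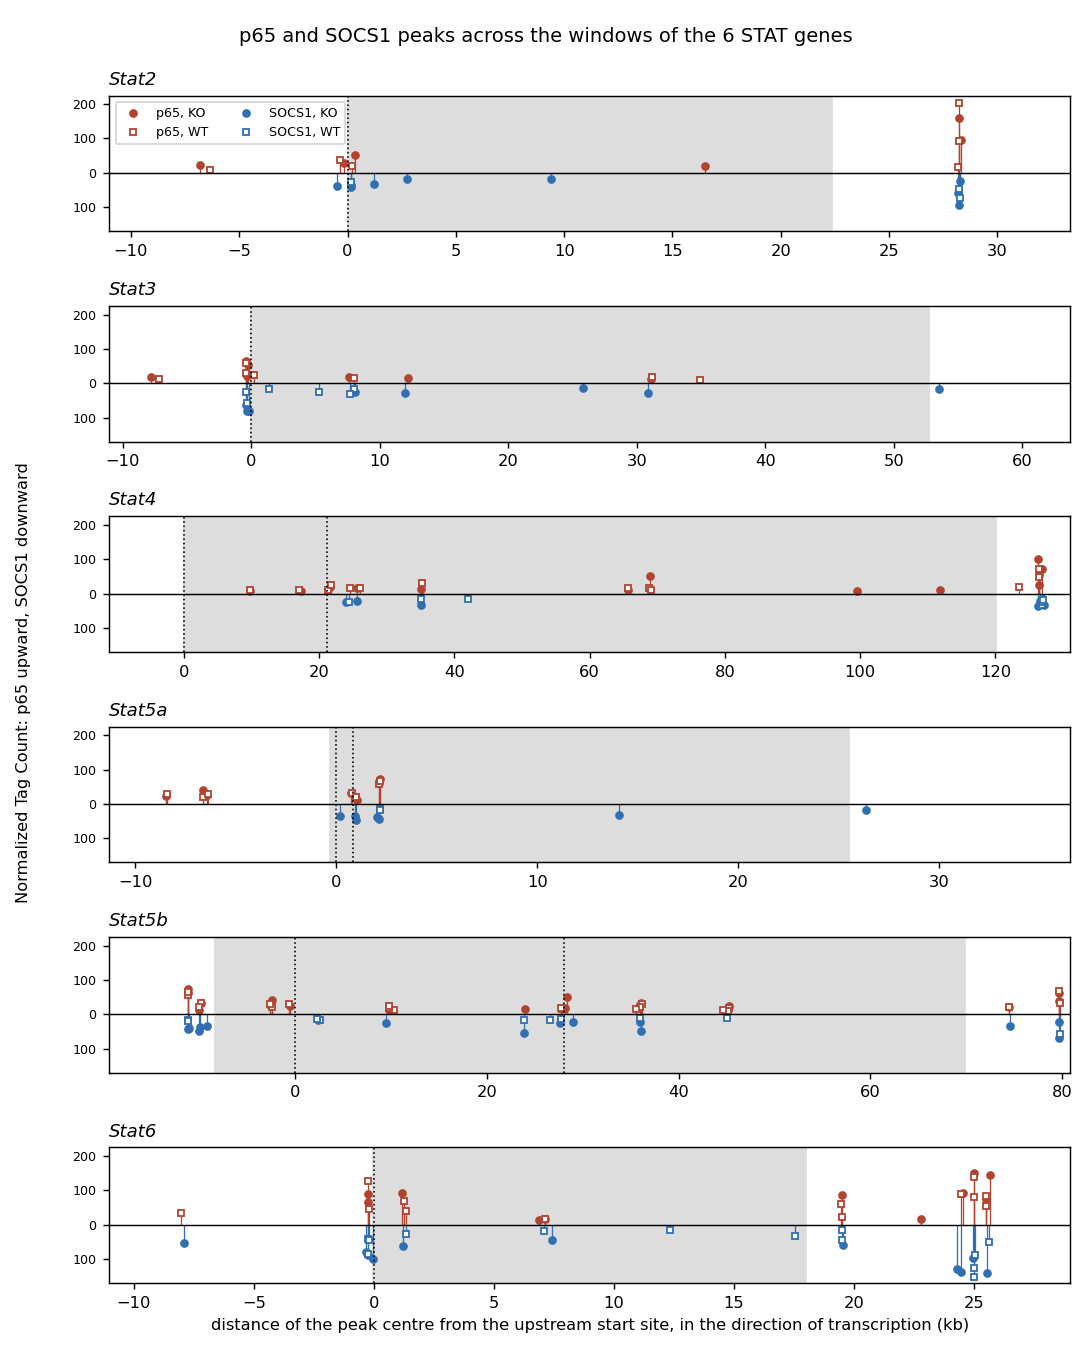
Each peak of the 12 lists at the 6 STAT genes, by the distance of its centre from the gene's upstream start site (x axis, kb, in the direction of transcription) and its Normalized Tag Count (y axis, p65 upward, SOCS1 downward; filled circles KO, open squares WT). Grey is the gene span and dotted lines are start sites; the tallest p65 points stand past the Stat2 span (up to 204.6) and past the Stat6 span (up to 150.0).

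Stat3, the mediator of the IL-6 and IL-10 responses, had its strongest site at its start (chr11:100939160-100940129), called in 11 lists. The p65 values there were 21.1, 63.5 and 51.8 in KO cells (control, 30 min, 8 h) and 24.7, 60.1 and 30.7 in WT cells. Both genotypes were highest at 30 min. In KO cells p65 at 30 min was 3.01 times control (interval 1.80 to 5.05), while the median log2 ratio over all shared regions was 0.91. The WT control peak was centred 201 bp past the start and did not overlap the WT peak at 30 min, centred 379 bp before it, so no ratio is given for that pair. SOCS1 gave 80.7, 80.2 and 63.1 in KO cells and, with no control peak, 58.5 and 25.2 in WT cells. In WT cells the 8 h value was 0.511 times that at 30 min for p65 (0.335 to 0.788) and 0.431 times for SOCS1 (0.256 to 0.706). In KO cells SOCS1 at 8 h was 0.787 times 30 min, with an interval that includes 1 (0.536 to 1.15). At 8 h SOCS1 was 2.50 times as high in KO as in WT cells (1.50 to 4.26), or 1.74 times per bp of peak width. The other 11 sites at Stat3 were in 1 to 3 lists each.

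Stat6, the factor that carries the IL-4 signal of alternative activation, had a site at its start (chr10:127642446-127643135) in 10 lists, all but the p65 controls. The p65 values were 90.3 and 64.6 in KO cells (30 min, 8 h) and 126.1 and 44.9 in WT cells. The 8 h to 30 min ratio was 0.715 in KO cells (0.535 to 0.952) and 0.356 in WT cells (0.255 to 0.498). The KO lists have peaks of 493 bp at 8 h and 222 bp at 30 min, and per bp the ratio was 0.322 in KO cells and 0.378 in WT cells. SOCS1 was at 99.9, 86.8 and 80.4 in KO cells and 43.3, 85.2 and 42.1 in WT cells. KO cells stayed within a narrow range over time, while WT cells peaked at 30 min, at 1.97 times control (1.28 to 3.10), and at 8 h were at 0.494 times 30 min (0.330 to 0.728). In control cells SOCS1 was 2.31 times as high in KO as in WT cells (1.49 to 3.62), with the KO control peak centred 58 bp before the start and the WT one 216 bp before it. Over all shared regions the median log2 ratio of SOCS1 in KO over WT control cells was 0.64. The peaks covered 34.0% to 100.0% of the Stat6 sequence shown above. Its upstream κB-like match, GGTTCACCCC, lay under 4 of the 10 peaks.

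Past the 3′ end of Stat6 lies Nab2, a corepressor of the EGR factors, which is transcribed toward Stat6. A site 1.5 kb past Stat6 and inside Nab2 (chr10:127662314-127662710) was called in 6 lists, both antibodies at 30 min and the WT lists at 8 h. Its p65 value was 85.2 in KO cells at 30 min, and 60.8 and 21.2 in WT cells at 30 min and 8 h. Its SOCS1 value was 58.2 in KO cells at 30 min, and 44.1 and 14.7 in WT cells at 30 min and 8 h. In WT cells the 8 h value was 0.349 times that at 30 min for p65 (0.203 to 0.553) and 0.333 times for SOCS1 (0.169 to 0.622).

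The strongest tags at Stat6 lay farther out, in 3 neighbouring sites that together span 1813 bp upstream of the Nab2 start. At the middle site (chr10:127667757-127668190, 1270 bp before the Nab2 start) p65 was 150.0 in KO cells at 30 min, and 137.7 and 80.7 in WT cells at 30 min and 8 h. SOCS1 at this site was 97.8 in KO cells at 8 h and 88.7, 151.4 and 124.6 in WT cells. In WT cells p65 at 8 h was 0.586 times 30 min (0.446 to 0.760), and SOCS1 at 30 min was 1.71 times control (1.27 to 2.37). At the outer site (chr10:127668344-127668888) p65 was 76.2 and 144.6 in KO cells (30 min, 8 h) and 84.4 and 54.8 in WT cells. SOCS1 at the outer site at 30 min was 141.1 in KO cells and 49.8 in WT cells, a ratio of 2.83 (2.00 to 3.97), or 1.62 per bp.

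The lists cut this stretch into different numbers of peaks. Summed over the 3 sites, p65 was 317.9 (3 peaks) at 30 min and 144.6 (1 peak) at 8 h in KO cells, and 312.6 (3 peaks) and 135.5 (2 peaks) in WT cells. Fewer peaks were called at 8 h, so a lower sum there is no measure of change. SOCS1 sums were 130.4, 277.8 and 97.8 in KO cells and 88.7, 201.2 and 124.6 in WT cells, from 1, 2 and 1 peaks in each genotype. The peaks behind these sums covered 261 to 794 bp, and per covered bp p65 was 0.475 and 0.293 in KO cells and 0.409 and 0.284 in WT cells (30 min, 8 h). Per covered bp SOCS1 was 0.314, 0.350 and 0.261 in KO cells and 0.259, 0.443 and 0.477 in WT cells. The WT value at 8 h is that of the middle site alone, while the one at 30 min averages the middle and outer sites. The order of these 2 values is therefore no measure of change. At the middle site alone, WT SOCS1 at 8 h was 0.72 times 30 min per bp.

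Stat2, the interferon-specific member, had its strongest site 5920 bp past its span (chr10:128298481-128299066), 397 bp beyond the span of Il23a, which encodes the p19 subunit of IL-23. The site was in 10 lists and held the highest p65 value of any STAT site. The p65 values were 160.6 and 94.6 in KO cells (30 min, 8 h, no control peak) and 18.2, 204.6 and 92.5 in WT cells. In WT cells p65 at 30 min was 11.2 times control (6.60 to 20.9), and at 8 h 0.452 times 30 min (0.355 to 0.571). The WT control peak of p65 held 14 tags and was 4.49-fold over IgG, near the authors' limit of 4. Over all shared regions the median log2 ratio of WT p65 at 30 min over control was 0.88. In KO cells p65 at 8 h was 0.589 times 30 min (0.466 to 0.739). Per bp of peak width these 8 h to 30 min ratios were 0.265 in KO cells and 0.481 in WT cells, the opposite order. SOCS1 was at 23.6, 57.7 and 92.6 in KO cells, and at 73.4 and 46.8 in WT cells at 30 min and 8 h, with no WT control peak. SOCS1 in KO cells was thus higher at each later time, 2.45 times control at 30 min (1.44 to 4.41), while in WT cells it was lower at 8 h. The IgG tags under this site differed between lists. They were 17.2 under the SOCS1 KO peak and 19 under the p65 KO peak at 8 h, against 1.0 under each WT peak at 8 h. The fold over IgG in the authors' lists was 4.19 for SOCS1 and 4.28 for p65 in KO cells at 8 h, near the authors' limit of 4, against 43.2 and 85.5 in WT cells.

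At the Stat2 start itself, the tags were modest and lay in 2 sites only 3 bp apart (chr10:128269823-128270435 and chr10:128270439-128271078). Together they were called in 8 lists. In the upstream site p65 was at 29.8 in KO cells at 30 min and at 37.8 in WT cells at 8 h, and SOCS1 at 38.6 in KO cells at 8 h. In the downstream site p65 was at 52.3 in KO cells at 8 h and at 20.8 in WT control cells. SOCS1 in the downstream site was at 36.6 and 41.2 in KO cells (control, 30 min) and at 27.4 in WT control cells. Values of different sites are not compared over time. The other sites at Stat2 were in 1 list each.

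Stat5a and Stat5b, the paralogs that carry growth-cytokine signals, lie side by side. The strongest p65 site of the pair was inside Stat5a, 1.30 kb past its second start and within 10 kb of Stat5b (chr11:100861498-100862076), in 8 lists, all of them after LPS. The p65 values were 63.5 and 73.2 in KO cells (30 min, 8 h) and 66.4 and 57.1 in WT cells, and neither genotype's 8 h to 30 min interval excluded 1. Per bp of peak width the ratio was 0.519 in KO cells and 0.914 in WT cells. SOCS1 was at 42.8 and 38.6 in KO cells and 18.5 and 15.8 in WT cells. The KO to WT ratio of SOCS1 was 2.31 at 30 min (1.30 to 4.31) and 2.44 at 8 h (1.28 to 4.90), and 1.33 and 1.69 per bp.

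At the second start of Stat5a (chr11:100860287-100860850, 6 lists) p65 was at 11.9 and 31.5 in KO cells (control, 30 min) and at 32.3 and 21.7 in WT cells (30 min, 8 h). SOCS1 was called there in KO cells alone, at 36.2 and 47.6 (30 min, 8 h). The second starts of Stat5a and Stat5b share a run of 16 bases, the longest exact match of their 250 bases. Longer stretches with mismatches were not searched, and whether reads of one gene map to the other was not tested.

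Stat5b held 19 sites, more than any other STAT gene, and most were weak. An intragenic site (chr11:100814286-100814755, 6 lists) had p65 at 32.3 in KO cells at 30 min and at 21.4 and 28.8 in WT cells (30 min, 8 h). SOCS1 there was at 49.7 in KO control cells and 22.5 in KO cells at 8 h, 0.453 times control (0.234 to 0.795), and at 9.46 in WT cells at 8 h. The site with the highest SOCS1 value of Stat5b (chr11:100770647-100771192, 7 lists) lay 9811 bp past its span, over the start of Ghdc, a neighbouring gene. SOCS1 was at 70.1 and 23.2 in KO cells (control, 8 h), a ratio of 0.331 (0.184 to 0.575), and at 56.3 in WT control cells. p65 was at 61.8 and 39.5 in KO cells (30 min, 8 h) and 68.7 and 31.6 in WT cells, where 8 h was 0.460 times 30 min (0.294 to 0.678). At this site SOCS1 was called in both control lists and p65 in neither.

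Stat4, the mediator of IL-12, is the longest member, and 15 of its 17 sites were intragenic and in 1 to 4 lists each, at 6.78 to 50.0. Its one recurrent site lay 6613 bp past the span (chr1:52113123-52114482, 11 lists) and within 10 kb of a second protein-coding gene. This site chains 2 clusters of peaks, which the p65 KO list at 30 min called separately. In the cluster nearer to Stat4, p65 was at 25.0, 53.7 and 101.8 in KO cells and at 48.0 and 70.4 in WT cells (30 min, 8 h), the KO peak at 8 h being the 493 bp one. Here, unlike at the Stat2, Stat3 and Stat6 sites above, WT p65 at 8 h was above that at 30 min, 1.47 times (1.04 to 2.09). SOCS1 in the nearer cluster was at 22.3 and 36.2 in KO cells (control, 30 min). In the farther cluster it was at 32.2 in KO cells at 8 h and at 19.5, 23.6 and 32.1 in WT cells. The SOCS1 values of the 2 clusters lie at different positions and are not compared with each other or with p65.

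**Figure D3:**
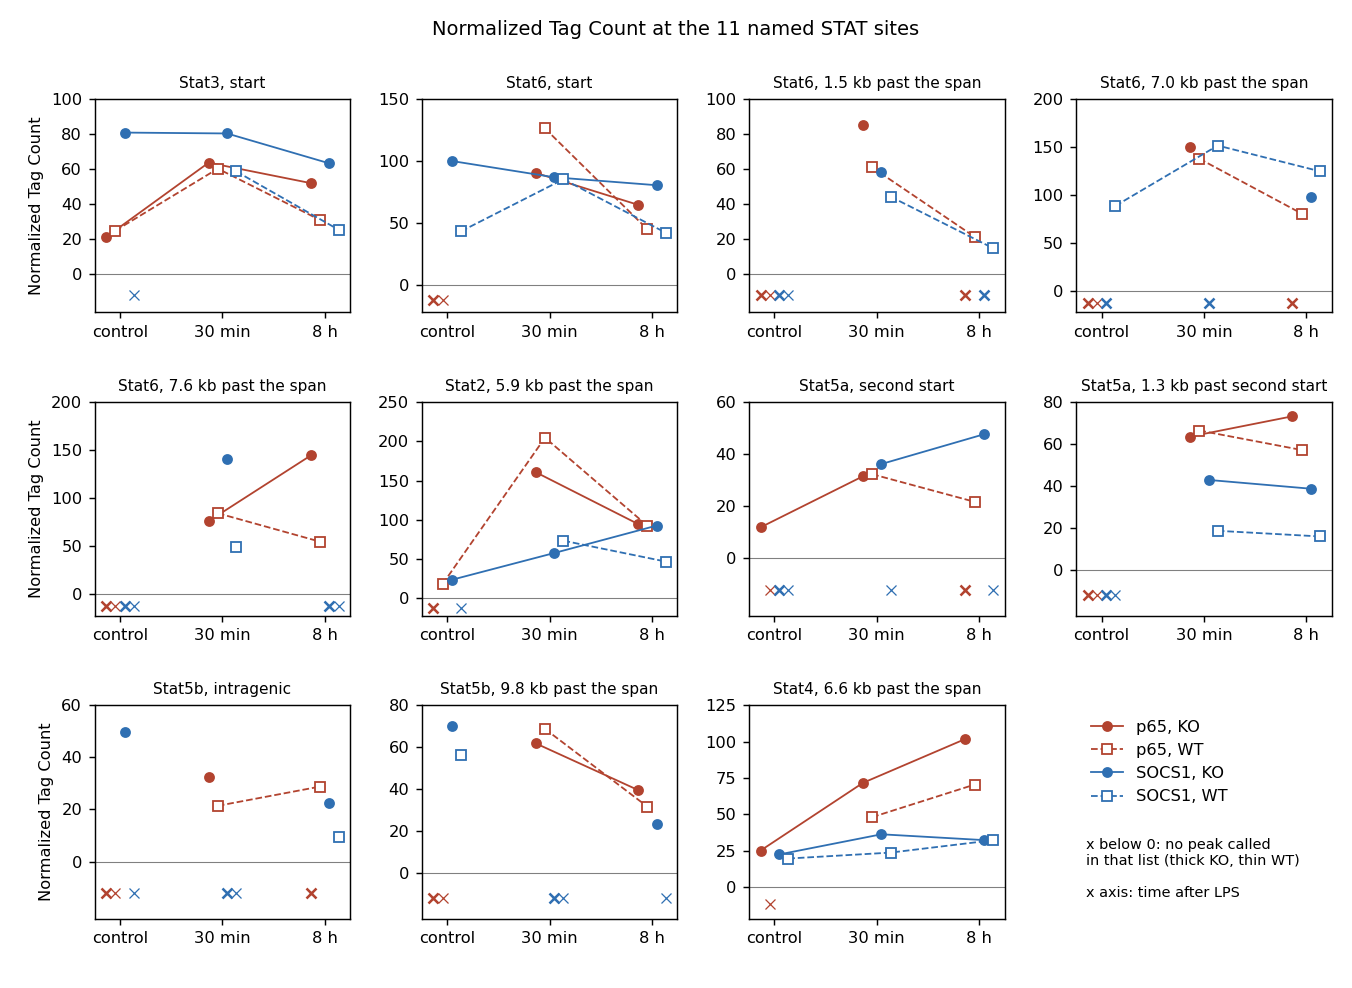
Normalized Tag Count of the highest peak of each list in the site (y axis) at control, 30 min and 8 h after LPS (x axis) at the 11 named STAT sites, 1 panel a site, p65 in red and SOCS1 in blue, KO filled circles and WT open squares; crosses below 0 mark lists with no peak called. WT p65 is lower at 8 h than at 30 min in 9 of the 11 panels.

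Between times, the share of STAT sites called again was set beside that of all regions. In KO cells 3 of the 31 sites at 30 min (9.68%) were also called in control, against 14.6% of all regions, and in WT cells 4 of 27 (14.8%), against 14.2%. Of the control sites, 3 of 4 in KO cells (all regions 58.1%) and 4 of 9 in WT cells (all regions 52.8%) were called at 30 min. Of the 8 h sites, 10 of 17 in KO cells (58.8%, all regions 65.3%) and 15 of 24 in WT cells (62.5%, all regions 60.2%) were also called at 30 min. They made up 32.3% of the KO and 55.6% of the WT sites at 30 min, against 39.7% and 51.4% of all regions. For SOCS1, 6 of 18 KO sites at 30 min (33.3%, all regions 35.8%) and 3 of 15 WT sites (20.0%, all regions 19.2%) were also called in control. At 8 h, 6 of 14 KO sites (42.9%, all regions 46.9%) and 8 of 13 WT sites (61.5%, interval 31.6% to 86.1%, all regions 45.3%) were also called at 30 min. The control lists are shallower than the 30 min lists, so a site absent from them is not shown to be unbound.

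The median p65 ratio of 8 h to 30 min over shared STAT sites was near 0 on the log2 scale in KO cells (10 sites, 5 higher and 5 lower) and -0.77 in WT cells (15 sites, 4 higher and 11 lower). Over all shared regions it was 0.29 in KO and -0.51 in WT cells. The KO peaks are 493 bp wide at 8 h and 222 bp at 30 min. Per bp of width the KO median was -1.15, against -0.86 over all regions, and the WT median -0.68, so both genotypes were lower at 8 h per bp. In WT cells 4 of 15 STAT sites were at least 2-fold lower, against 22.3% of all shared regions. For SOCS1 the median was -0.13 in KO cells (6 sites) and -0.47 in WT cells (8 sites), against -0.38 and -0.48 over all regions. In WT cells 3 of 8 SOCS1 sites were at least 2-fold lower, against 23.6%. Against control, SOCS1 in KO cells had a median of 0.12 at 30 min and -0.33 at 8 h (6 sites each), and 2 of 6 sites were at least 2-fold lower at 8 h, against 22.6%.

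Between genotypes, 1 of 4 p65 sites of KO control cells was also called in WT (25.0%, all regions 20.7%), 19 of 31 at 30 min (61.3%, all regions 58.7%) and 10 of 17 at 8 h (58.8%, all regions 60.3%). They were 11.1%, 70.4% and 41.7% of the WT sites, against 23.0%, 69.9% and 51.1% of all regions. The 1 p65 site shared by the control lists was the Stat3 start. Its KO and WT control peaks do not overlap each other and are joined through peaks of other lists. For SOCS1, 4 of 18 KO control sites were also called in WT (22.2%, all regions 15.8%), 10 of 18 at 30 min (55.6%, all regions 40.6%) and 7 of 14 at 8 h (50.0%, all regions 41.5%). They were 40.0%, 66.7% and 53.8% of the WT sites, against 40.8%, 41.8% and 47.7% of all regions. The SOCS1 site past Stat4 likewise joins KO and WT peaks that do not overlap, in control and at 30 min. The shares of all regions count sites in the same way. At 30 min the median log2 ratio of p65 in KO over WT cells was -0.06 over 19 sites (8 higher, 11 lower, none 2-fold), and 0.01 over all regions. Single sites ran from -0.63 to 0.59. The KO to WT ratio was 0.716 at the Stat6 start (0.573 to 0.890) and 0.785 past Stat2 (0.663 to 0.927). At the site inside Nab2 it was 1.401 (1.065 to 1.855). The highest KO and WT peaks past Stat4 did not overlap, so no ratio is given there. At the other shared sites the interval included 1.

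At 8 h all 10 shared p65 sites were higher in KO than in WT cells, with a median log2 ratio of 0.64, and 4 were at least 2-fold higher, against 31.8% of all shared regions. The same ratio over all regions was 0.72. Per bp of width the STAT median was -0.40 and the all-region median -0.33, so the sign changed when values were divided by width. Tags in windows of a common width were not counted, and the part of peak width was not tested. SOCS1 at 30 min had a median of 0.54 over 10 sites (9 higher in KO, 3 of them 2-fold, against 27.9%), with 0.59 over all regions, and -0.27 per bp. SOCS1 at 8 h had a median of 0.98 over 7 sites (6 higher in KO, 3 of them 2-fold, against 27.7%), with 0.64 over all regions, and 0.46 per bp, against 0.11 per bp over all regions. Of the 3 genotype medians with a shift over 0.5, only that of SOCS1 at 8 h kept its sign per bp.

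**Figure D4:**
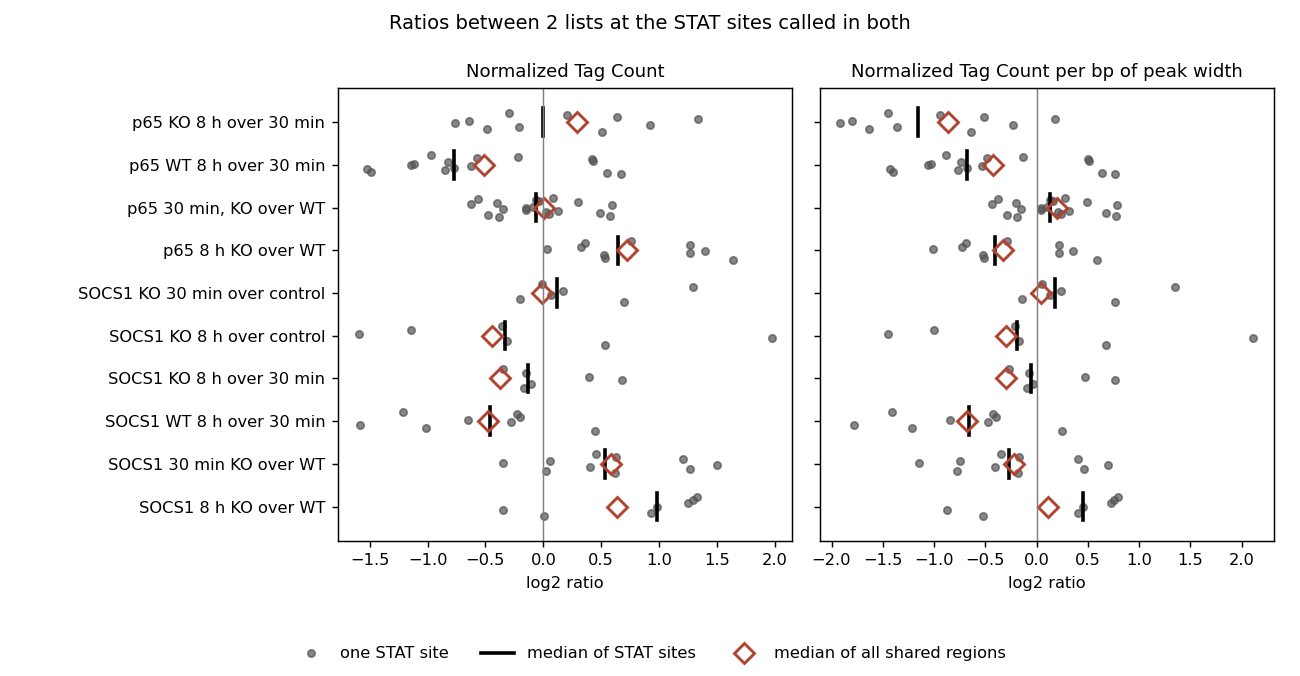
Log2 ratio (x axis) at each STAT site called in both lists of a pair (grey points), for the 10 time and genotype pairs with at least 6 shared sites (y axis), with the STAT median (black bar) and the median over all shared regions (red diamond). The left panel uses the Normalized Tag Count and the right one the same per bp of peak width; on the right the p65 KO to WT median at 8 h is -0.40, on the left 0.64.

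Where both antibodies were compared within a genotype and time, p65 sites with a SOCS1 peak in KO cells were 2 of 4 in control (50.0%, all regions 41.3%), 12 of 31 at 30 min (38.7%, all regions 31.0%) and 6 of 17 at 8 h (35.3%, all regions 35.8%). In WT cells they were 2 of 9 (22.2%, all regions 28.3%), 12 of 27 (44.4%, all regions 32.7%) and 10 of 24 (41.7%, all regions 33.2%). Read the other way, 11.1%, 66.7% and 42.9% of KO SOCS1 sites and 20.0%, 80.0% and 76.9% of WT SOCS1 sites had a p65 peak. Over all regions these shares were 18.2%, 66.2% and 59.3% in KO cells and 28.9%, 60.3% and 74.5% in WT cells. In all 20 pairs of lists compared by time, genotype or antibody, the share over all regions lay within the interval of the STAT share. Only the direction given first for each pair was compared in this way. These intervals treat neighbouring sites as independent and rest on 4 to 31 sites. They are too wide to show that the shares are alike, and no conclusion is drawn from them.

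Of 38 other genes of the pathway, 37 had a peak in some list and 14 in all 12. Osmr, the oncostatin M receptor, had none. The count with a p65 peak was 23, 37 and 34 in KO cells (control, 30 min, 8 h) and 28, 37 and 36 in WT cells. With a SOCS1 peak it was 34, 34 and 29 in KO cells and 24, 32 and 30 in WT cells. Among all protein-coding genes the share with a p65 peak was 32.7% to 65.4% by list, and with a SOCS1 peak 32.4% to 55.3%. For all genes the shares with a peak in some list or in all 12 were not computed, and gene length was not matched. All 4 Janus kinases had a p65 peak in both genotypes at 30 min and 8 h, against 65.4% and 61.9% (KO, WT) of all genes at 30 min and 55.5% and 55.9% at 8 h. The brakes (SOCS, PIAS and phosphatase genes) had a p65 peak at 16 of 16 in both genotypes at 30 min, and a SOCS1 peak at 15 in KO and 13 in WT cells at that time, against 51.0% and 47.7% of all genes. The highest p65 values were at Tyk2, a Janus kinase of the interferon receptors (453.2, KO, 8 h), Il10rb, a chain of the IL-10 receptor (413.1, KO, 30 min), Cish, a SOCS family member that STAT5 induces (290.5, WT, 30 min), Ptpn11, the phosphatase SHP2 (230.0, KO, 8 h), and Il12rb1, an IL-12 receptor chain (217.0, KO, 30 min). The highest SOCS1 values were at Cish (214.7, KO, 30 min), Tyk2 (208.2, WT, 8 h), Il10rb (203.7, WT, 30 min), Ptpn6, the phosphatase SHP1 (198.6, KO, control), and Ifngr1, the interferon-γ receptor (157.6, KO, 30 min). The highest p65 value at a STAT gene, 204.6 beside Stat2 and Il23a, was below these 5 p65 values. The lists compared have peak widths of 222 to 493 bp, and the order per bp was not worked out.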

How the data were processed

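The 12 peak lists for p65 and SOCS1 were used, among 20 labelled samples; 6 IgG libraries entered through the authors' calls alone, and 2 internal controls were not analysed here. Per the submitters' processing notes, reads were handled with cutadapt, Bowtie2 2.4.1, HOMER 4.11 and the mm10 build. Per the file headers, peaks were called per library against IgG at an FDR of 0.001, at least 4-fold over IgG and over the local 10 kb, with at most 1 tag per bp. The signal is the authors' Normalized Tag Count per 10000000 tags, the score their findPeaks score, and the fold ratio to IgG or local background is theirs too, per the file headers. The labels mention a spike-in, which was not used here.

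Sites, shares and ratios were computed with Python 3.11.15, pandas 2.3.3, numpy 2.4.6 and scipy 1.17.1 (Clopper-Pearson intervals), and figures with matplotlib 3.10.9. The site and interval code was tested on simulated data. Where a list had several peaks in a site, the highest value was used. Genes came from the GRCm38.p6 table, start sites and sequences from RefSeq. The sites named are those in 6 or more lists and the strongest per gene and antibody; of other pathway genes, the 5 highest per antibody and those with no peak. Members and lists were chosen with earlier results of these data known. Sequences of peaks outside start-site windows, and proteins, were not used here. Libraries of 1 per group leave variation between animals unmeasured, so no test was made. The alternatives tried were a 5 kb window, peaks at least 8-fold over local background, a common floor of 10.3, joining centres within 500 bp, values per bp, centring on all regions and, chosen after seeing the data, subtracting IgG tags.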

Additional observations from a re-analysis of the deposited data

Results flagged for a closer look

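In 3 cases the same contrast went in opposite directions in different groups, with both counting intervals excluding no change; none of these differences was tested, as each group is 1 library. At the site past Stat2 and Il23a, SOCS1 at 8 h over 30 min was 1.61 in KO cells (1.10 to 2.31) and 0.638 in WT cells (0.431 to 0.942), a difference of 1.33 on the log2 scale, and 1.61 per bp of width. With IgG tags subtracted, the ratios were 1.36 and 0.646. No interval was worked out for these, so whether they still exclude no change is not known. At the same site in KO cells, 8 h over 30 min was 0.589 for p65 and 1.61 for SOCS1, a difference of -1.45 on the log2 scale, and the 2 peaks at 8 h held 17 to 19 IgG tags. At the outer site past Stat6, p65 at 8 h over 30 min was 1.90 in KO cells (1.51 to 2.41) and 0.649 in WT cells (0.466 to 0.902), a difference of 1.55 on the log2 scale. Per bp the KO ratio was 0.855 and the WT ratio 0.690. The KO list called 3 peaks in the surrounding stretch at 30 min and 1 at 8 h, and the WT list 3 and 2.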

How the results depend on the processing

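No paired analysis was possible because each group is 1 library. Keeping only peaks at least 8-fold over local background left 1, 18 and 2 STAT peaks for p65 in KO cells (control, 30 min, 8 h), 2, 14 and 12 for p65 in WT cells, and 6 for SOCS1 in KO and 7 in WT cells at 8 h. STAT genes with a p65 peak were then 1 and 2 in KO cells (control, 8 h) and 3 in WT control cells. The shares of shared sites became 0% for p65 in WT cells (30 min in control), for p65 in control cells (KO in WT) and for p65 with SOCS1 in KO control cells, and 25.0% for SOCS1 at 30 min (KO in WT). Median log2 ratios under that limit were -0.65 and -0.49 for p65 at 8 h over 30 min in KO and WT cells, 0.32 for p65 at 8 h KO over WT, and -0.75 for SOCS1 at 8 h over control in KO cells, the KO p65 values from 1 site each. Fewer peaks enter under this limit by construction.

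A 5 kb window left 11 p65 peaks in KO cells at 8 h, and medians of 1.01 for p65 and 1.27 for SOCS1 at 8 h KO over WT and of -1.02 for SOCS1 in WT cells at 8 h over 30 min. Per bp of width the medians were -1.15 for p65 in KO cells at 8 h over 30 min. KO over WT they were 0.13 (30 min) and -0.40 (8 h) for p65, and -0.27 (30 min) and 0.46 (8 h) for SOCS1. The wider peaks of some KO lists are what this setting divides out. Set against the median of all regions, they were -0.29 and -0.26 for p65 at 8 h over 30 min in KO and WT cells, -0.076 for p65 KO over WT at 8 h, 0.11 for SOCS1 in KO cells at 8 h over control, 0.25 and 0.015 for SOCS1 at 8 h over 30 min in KO and WT cells, and -0.049 and 0.35 for SOCS1 KO over WT at 30 min and 8 h. Of 87 values of single-site ratios under other settings, 74 stayed within their counting interval and 1 reversed, p65 at the outer Stat6 site in KO cells at 8 h over 30 min, with a log2 ratio of -0.23 per bp. The common floor, the 500 bp rule and IgG subtraction moved no value past these limits. Of 119 site ratios, 11 set peaks side by side that do not overlap each other. The lowest findPeaks score in a list was 7 to 12.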
